A study of Mus musculus with 15 samples.

Results

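Livers of 6 mice, 3 from mice on caloric restriction (CR) and 3 from mice on the standard diet (SD), were compared for histone H3 trimethylated at lysine 4 (H3K4me3) at promoters. They were all the libraries labelled with either diet, 6 of the 15 in the series, with 1 library per mouse. The animals were wild-type females of strain C57BL/6 by the labels and C57BL/6J by the study text, without a transgene, given as 12 months old in the labels, while the study text puts them at 3 months of age when the diets began and feeds them for 10 months. The SD group ate a standard chow ad libitum, and the CR group received 70% of that intake of the same chow each day. The mice came from 6 litters, and the litter of each mouse and the hour at which livers were taken are not given in the sources used here. Chromatin was prepared from formalin-fixed, paraffin-embedded sections by PAT-ChIP, which is chromatin immunoprecipitation from archived tissue, and enriched regions were called as islands by SICER2. An island carries a position, a width and a score, and no read count, so the score was used only as a percentile within its own library, where 100 is the highest-scoring island of the list.

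H3K4me3 is laid down around transcription start sites (TSSs) by methyltransferase complexes of the SET1 and MLL families, which are drawn to unmethylated CpG-rich DNA and to transcribing polymerase. The mark is found at promoters of active and poised genes, and it tends to spread over a wider stretch at genes that define a cell type. In the liver, reduced food intake is known to shift fuel use from glucose and lipid synthesis towards fatty acid oxidation, and the timing of meals is known to set the phase of the hepatic clock.

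The depth of the 6 libraries differed within diets more than between them. From the steps of the island scores, 10714462, 9547841 and 6541539 reads were recovered for SD_1, SD_2 and SD_3, and 5589269, 9919067 and 8716790 reads for CR_1, CR_2 and CR_3. The shallowest library was therefore CR_1 and the next SD_3. CR_3 stood apart by the length of its list, 33752 islands, of which 22329 lay away from promoters, against 10501 to 23107 islands in the other 5 libraries. The deposited names of CR_1 and CR_2 carry the word PATChIP, and those of CR_3 and the 3 SD libraries carry ChIP, so diet and form of name cannot be fully told apart. Between 1.23% and 2.4% of the islands of the shorter list were identical in position in any pair of libraries, so no list was a copy of another. The depth behind a single island was not used, and the errors given are those between mice. Since every gene is present or absent in 3 mice against 3, no gene could be tested alone for presence: the smallest two-sided p of Fisher's exact test is 0.1.

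Markers of the tissue were checked first. Of 49 hepatocyte genes with an annotated TSS, 47 had an island within 1 kb of a TSS in at least 1 library, and 33 had one in all 6. Ttr, Hnf4a and Cps1 were marked in all 6 libraries, Apoa1 in 2 of each diet, and Alb only in SD_3. Markers of other liver cells were marked to differing degrees. Of 20 Kupffer cell genes 2 were marked in any library (1 to 2 per library in either diet), and the 6 defining ones, Clec4f, Vsig4, Timd4, Cd5l, Adgre1 and Csf1r, had no island in any library. Of 19 sinusoidal endothelial genes 16 were marked in at least 1 library, 6 to 12 per CR library and 5 to 12 per SD library. Of 14 cholangiocyte genes 2 to 6 were marked per CR library and 2 to 3 per SD library, of 20 stellate cell genes 1 to 2 and 2 to 5, and of 22 lymphocyte and neutrophil genes 0 and 0 to 1. In whole tissue, fewer cells of a type and less mark per cell cannot be told apart.

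The number of promoters marked did not separate the diets. SD_1, SD_2 and SD_3 had an island at 9380, 9360 and 7116 protein-coding genes, and CR_1, CR_2 and CR_3 at 7716, 10110 and 10492, out of 21755 annotated. The groups overlapped, with CR_1 below SD_1 and SD_2. The mean was 9439 ± 1505 genes in CR and 8619 ± 1301 in SD (s.d., n = 3 each), a difference of 821 genes (exact permutation test, two-sided, p = 0.5, with 20 arrangements and 0.1 as the smallest p they allow; s.d. is the standard deviation). The difference was 69.3 genes without SD_3, 294 without CR_3, 485 without CR_2, 1682 without CR_1 and 467 when the same number of islands was kept from each list. CR_3 alone, whose name has the ChIP form of the SD libraries, lay 1873 genes above their mean. Island width behaved alike. At promoters with an island in all 6 libraries the median island was 2200, 2000 and 2000 bp wide in the SD mice and 2000, 2400 and 2600 bp in the CR mice, which is 2067 ± 115 bp against 2333 ± 306 bp (s.d., n = 3 each), a difference of 267 bp (two-sided exact permutation test, p = 0.4). The difference was 133 bp without CR_3, 167 bp without SD_2 and 133 bp when the TSS had to lie inside the island.

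**Figure D1:**
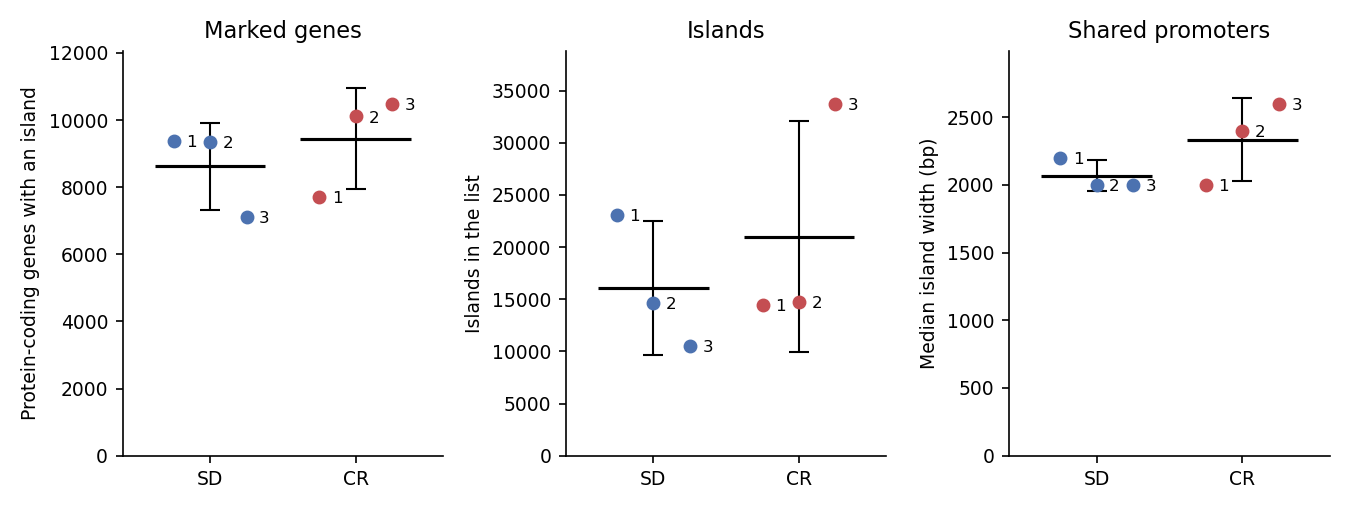
Protein-coding genes with an island within 1 kb of a TSS (left), islands per list (middle) and median island width in bp at shared promoters (right) for the 3 SD and 3 CR libraries. Points are single mice labelled by replicate number, horizontal lines are means and bars are standard deviations (n = 3); in each panel the 2 diets overlap, and CR_3 has the longest list with 33752 islands.

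Promoters holding an island in every mouse of one diet and in no mouse of the other were few and lay mostly on the CR side. Of 11686 protein-coding genes marked in at least 1 of the 6 libraries, 68 (0.582%) had an island in all 3 CR and no SD library, and 4 (0.0342%) had one in all 3 SD and no CR library. The 68 genes rest on 64 distinct sets of islands, since 4 pairs of neighbours (Nrg4 and Tmem266, Lrp2bp and Ankrd37, Vrk2 and Gm6899, Zfp653 and Gm49318) share theirs. With 2 of 3 mice required in place of all 3, the counts were 389 genes (3.33%) for CR and 73 genes (0.625%) for SD. In 63 of the 68 CR-only genes no SD library had an island within 3 kb either, and this was so for CR libraries in 2 of the 4 SD-only genes. When the same number of highest-scoring islands was kept from each list (10501), the split was 55 CR-only against 14 SD-only genes. Each count also depended on single libraries. CR-only genes numbered 328 without CR_1, 103 without CR_2, 214 without SD_1 and 195 without SD_2, and SD-only genes numbered between 10 (without CR_1) and 40 (without SD_3).

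The CR-only islands were of moderate strength. Their median score percentile was 37.6 in CR_1, 43.2 in CR_2 and 68.5 in CR_3, where the 5389 genes marked in all 6 libraries had medians of 76.2, 81.1 and 91.4. Below the median of their own list lay 48 of the 68 in CR_1, 46 in CR_2 and 16 in CR_3. The width of the CR-only islands had a median of 1600, 1400 and 1200 bp in CR_1, CR_2 and CR_3. Over the 389 genes of the wider rule, CR_1 held an island at 129, CR_2 at 354 and CR_3 at 363, so that most of them rested on CR_2 and CR_3 together. Without CR_1 the wider count was 328, without CR_2 103, without CR_3 94, without SD_1 768 and without SD_2 823. The SD count under the wider rule was 145 without CR_2, 206 without CR_3, 16 without SD_1, 25 without SD_2 and 40 without SD_3. Leaving out a mouse of the marked diet lowers these counts by construction, since both remaining mice must then be marked. Leaving out a mouse of the opposite diet loosens the rule.

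The CR-only promoters with the highest scores were those of Tent4b, Gpsm3, Usp2, Ppard and Ak4. Tent4b, a non-canonical poly(A) polymerase, led with percentiles of 85.6, 77.3 and 81.7 in CR_1, CR_2 and CR_3. Gpsm3, a modulator of G protein signalling, followed with 93.2, 60.4 and 85.2. In both genes the SD mice had an island within 3 kb, in 2 of 3 for Tent4b and in 3 of 3 for Gpsm3, and whether these belong to the same stretch as the CR islands was not tested. Usp2 came next, a deubiquitinating enzyme whose liver transcript cycles with the clock. Its island stood at chr9:44084401-44087800 (mm10) in CR_3, spanned the TSS at 44084939 on the plus strand and ran into the gene, with percentiles of 61.7, 77.0 and 95.4 and widths of 1200, 2800 and 3400 bp in CR_1, CR_2 and CR_3. No SD library had an island there or within 3 kb.

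Among genes of lipid handling, Ppard and Acot4 were CR-only. Ppard encodes PPARdelta, a nuclear receptor for fatty acids, and its island at chr17:28232801-28233600 in CR_3 had percentiles of 70.0, 73.6 and 74.4 in the 3 CR mice, the narrowest spread of the leading genes (72.6 ± 2.4, s.d., n = 3). Acot4 encodes a peroxisomal acyl-CoA thioesterase. Its island, at chr12:84037801-84042200 in CR_3, was the widest of the leading genes on average, 3000, 4000 and 4400 bp, with percentiles of 57.3, 77.95 and 80.3. Acot4 was the only CR-only gene of 34 marked genes of fatty acid oxidation and ketogenesis (2.94%), beside 0.582% of all marked genes. It lies among related Acot genes, at which reads of similar sequence could be misplaced.

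The remaining leading genes served varied functions. Ak4, a mitochondrial adenylate kinase, had percentiles of 75.5, 58.8 and 82.8, and Hpf1, the partner of PARP1 in serine ADP-ribosylation, had 55.1, 68.8 and 71.6. Bloc1s2, a subunit of complexes that position lysosomes, had 71.6, 42.3 and 75.3. Adarb1, which edits adenosines in double-stranded RNA, had 82.7, 51.2 and 54.8. Txlng, Vcan and Cdkl2, a syntaxin-binding protein, a matrix proteoglycan and a kinase, completed the 12 highest with mean percentiles of 61.3, 60.6 and 59.96 (n = 3). The standard deviation between the 3 CR mice ran from 2.4 points in Ppard to 26.1 in Cdkl2. Over all 68 genes the mean percentile ran from 21.7 to 81.5 with a median of 46.9, and 24 had a mean above 50.

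A further 3 CR-only genes belonged to gene lists examined for this diet, each as the only CR-only gene of its list. They were 1 of 39 marked genes of mTOR and autophagy, 1 of 24 of the clock and 1 of 25 antioxidant genes. Over all marked genes 0.582% were CR-only. The lists of P450 genes (48 marked), glucose metabolism (40), the insulin axis (34) and cholesterol synthesis (29) held 0. Tfeb, the transcription factor that drives lysosome and autophagy genes, had an island at chr17:47737001-47738400 in CR_2, with percentiles of 48.1, 62.1 and 46.1. Bhlhe41 (DEC2), a repressor in the circadian loop, had an island at chr6:145865001-145866800 in CR_3 over its TSS at 145865302 on the minus strand, with percentiles of 37.3, 45.8 and 71.6. Gsta4, the glutathione transferase that clears 4-hydroxynonenal, ranged most widely, at 7.1, 55.1 and 88.4, with an island of 600 bp in CR_1 and of 1800 bp in CR_2 and CR_3. It lies in a cluster of related transferases, and none of the other 9 libraries of the series had an island at it.

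The 4 SD-only genes were Lipc, Zfp667, Clec12a and Hand2. Lipc encodes hepatic lipase, which hydrolyses triglyceride and phospholipid of circulating lipoproteins. Its island at chr9:70932801-70934800, over the TSS at 70934613 on the minus strand, had percentiles of 75.5, 52.9 and 56.7 and widths of 2000, 2200 and 1800 bp in the SD mice, with no CR island within 3 kb. Zfp667, a zinc finger protein gene, had percentiles of 36.1, 61.0 and 36.1, and 2 CR libraries held an island within 3 kb of it. Clec12a, an inhibitory lectin of myeloid cells, had 76.2, 25.5 and 17.0, with a CR island within 3 kb in 1 library. Hand2, a transcription factor found in hepatic stellate cells, had 47.5, 23.7 and 30.3, from islands that lay upstream of its TSS. Beside Hand2, the stellate markers Reln, Des and Pdgfrb had no island in any of the 6 libraries and Lrat had one only in SD_3. The islands of the stellate list summed to 4.8, 4.2 and 13 kb in the SD mice and to 2, 4.2 and 3.4 kb in the CR mice. The part of cell composition in these islands was not tested.

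Several of the named calls depended on how a promoter was defined. With the TSS required inside the island, Tent4b, Gpsm3, Usp2, Adarb1, Txlng, Bhlhe41 and Gsta4 were no longer CR-only, and Clec12a and Hand2 no longer SD-only. Usp2, Adarb1, Txlng and Bhlhe41 then still had an island in 2 more CR than SD libraries. With a distance of 3 kb, Tent4b, Gpsm3, Zfp667 and Clec12a dropped out. With the same number of islands from each list, Adarb1, Tfeb, Gsta4, Zfp667, Clec12a and Hand2 did. Ppard, Ak4, Acot4, Hpf1, Bloc1s2, Vcan and Cdkl2 remained CR-only in each of these 3 alternatives, as Lipc remained SD-only.

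**Figure D2:**
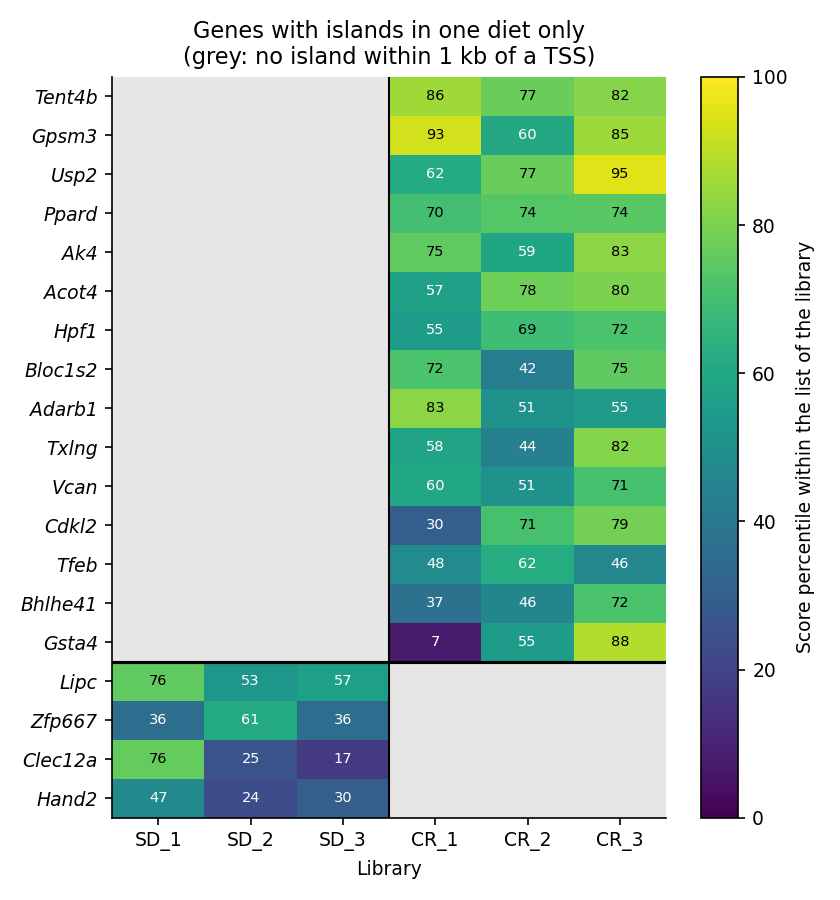
Score percentile within each library's own list (colour and number) for the 15 named CR-only genes (above the line) and the 4 SD-only genes (below it) in the 3 SD and 3 CR libraries, with grey where no island lay within 1 kb of a TSS. Within CR the numbers vary between mice, most of all for Gsta4 (7.1 to 88.4) and least for Ppard (70.0 to 74.4).

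The promoters of a few of these genes are shown for their CpG content, which differs between them. The sequences are the 150 bases before a TSS in RefSeq (GRCm38.p6, the assembly of mm10), written 5′ to 3′ on the strand of the gene, with every CpG in capitals.
Usp2 (CR-only), chr9:44084770-44084919, plus strand: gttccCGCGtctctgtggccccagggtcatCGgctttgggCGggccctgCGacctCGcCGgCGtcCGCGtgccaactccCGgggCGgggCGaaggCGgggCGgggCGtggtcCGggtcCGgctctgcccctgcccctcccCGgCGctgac
Bhlhe41 (CR-only), chr6:145865421-145865570, minus strand: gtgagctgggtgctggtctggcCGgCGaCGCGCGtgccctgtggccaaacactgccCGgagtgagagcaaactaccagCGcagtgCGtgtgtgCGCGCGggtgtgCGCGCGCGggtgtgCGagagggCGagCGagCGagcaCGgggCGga
Tfeb (CR-only), chr17:47736887-47737036, plus strand: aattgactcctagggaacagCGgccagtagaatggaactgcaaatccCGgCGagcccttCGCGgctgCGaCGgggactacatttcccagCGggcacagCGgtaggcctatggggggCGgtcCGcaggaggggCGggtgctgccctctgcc
Lipc (SD-only), chr9:70934809-70934958, minus strand: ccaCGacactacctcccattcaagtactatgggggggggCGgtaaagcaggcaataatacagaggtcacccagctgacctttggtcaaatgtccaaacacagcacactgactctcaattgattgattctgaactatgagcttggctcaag
Hand2 (SD-only), chr8:57320833-57320982, plus strand: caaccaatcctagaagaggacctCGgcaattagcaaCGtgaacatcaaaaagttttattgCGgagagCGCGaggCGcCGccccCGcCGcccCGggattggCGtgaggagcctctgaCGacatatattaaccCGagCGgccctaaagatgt
These stretches hold 20 CpGs in Usp2, 21 in Bhlhe41, 12 in Tfeb, 14 in Hand2 and 2 in Lipc, whose promoter is thus CpG-poor among otherwise CpG-rich ones.

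Across all windows the CR-only promoters had the CpG content of promoters marked in every mouse. RefSeq windows of 250 bases before to 50 after a TSS were available for 52 of the 68 CR-only genes and for all 4 SD-only genes. Classed by their own islands, 73 windows of 56 genes were CR-only, some of them second promoters of genes marked elsewhere in SD, with a median CpG observed over expected ratio of 0.826 and an interquartile range of 0.649 to 0.935. The median was 0.824 in 4814 windows marked in all 6 libraries, 0.272 in 9561 windows without an island and 0.591 over all 20061 windows. A ratio above 0.6 was found in 79.5% of CR-only windows, 84.0% of windows marked in all 6 and 20.7% of unmarked ones. Classed in the same way, 4 windows were SD-only, those of Lipc (0.283), Hand2 (0.897), Zfp667 (0.769) and 1 promoter of Mef2c (0.612), a gene with an island in 1 CR library at another TSS. The windows of Clec12a were not in this class. These are descriptions without a test, and windows of the same gene can overlap.

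Short motifs were counted in the same windows on both strands, and none of the 6 motifs contains another. The GC box GGGCGG was present in 76.7% of CR-only windows, in 67.9% of windows marked in all 6 and in 48.0% of all windows. The CCAAT box (CCAAT) was present in 43.8% of CR-only windows and 37.9% of all windows, and the TATA box TATAAA in 2.74% and 12.1%. The E-box CACGTG, the letters bound by CLOCK and BMAL1 among other factors, was present in 12 of 73 CR-only windows (16.4%), against 11.2% of windows marked in all 6 and 8.06% of all windows. Those 12 windows include Bhlhe41, Ak4, Naglu and a promoter of Per1. The cAMP response element TGACGTCA was present in 1.37% of CR-only and 2.32% of all windows, and the forkhead site TGTTTAC in 1.37% and 2.97%. A match is only a run of letters and does not show a bound factor.

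**Figure D3:**
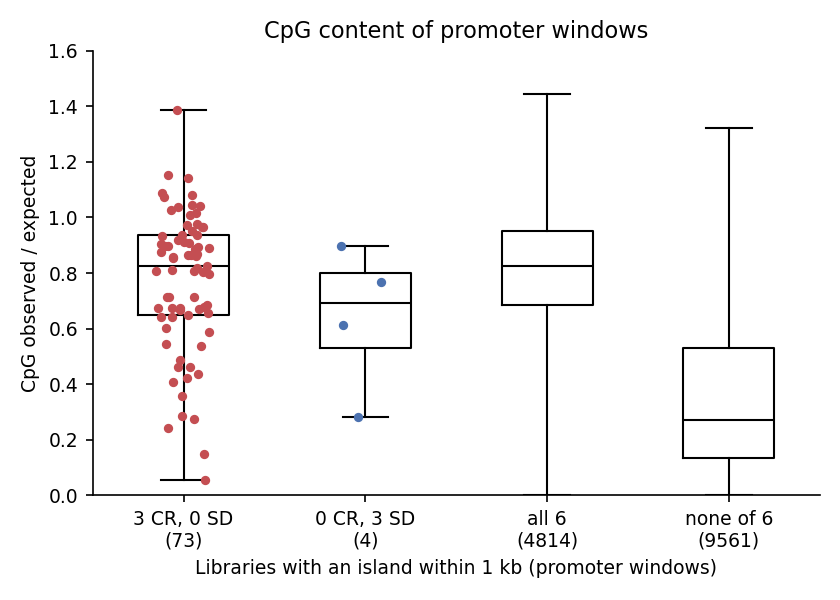
CpG observed over expected in promoter windows by the libraries that hold an island within 1 kb, with the number of windows in parentheses. Boxes give the median and quartiles, whiskers the full range and points single windows of the CR-only and SD-only classes; the CR-only median of 0.826 lies beside that of windows marked in all 6 libraries (0.824) and above that of unmarked windows (0.272).

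Most CR-only genes were also marked in the high-fat mice, as were most of all marked genes. Among the 68 genes, 47 (69.1%) had an island in all 3 libraries of the high-fat diet, against 83.9% of all marked genes. In at least 1 of them 67 had an island, and 1 (1.47%) had none, against 4.18% of all marked genes with none. In the yellow corn diet 57 of the 68 (83.8%) had no island in any mouse, and in the purple corn diet 38 (55.9%) had none, against 37.97% and 23.95% of all marked genes. The total of marked genes moved in the same order, at 10345 to 11875 in the high-fat, 6050 to 7555 in the purple corn and 3811 to 5769 in the yellow corn libraries, and its part in these shares was not tested. Usp2, Ak4 and Acot4 were each marked in 2 high-fat mice and in no corn-fed mouse. Of the SD-only genes, Lipc was marked in 5 of the 9 other libraries, Clec12a in 4, Zfp667 in 3 and Hand2 in 2.

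Genes of the circadian clock leaned towards CR, in a way that rested on SD_3. All 24 clock genes examined were marked in at least 1 library, with 21, 23 and 21 marked in CR_1, CR_2 and CR_3 and 19, 20 and 9 in SD_1, SD_2 and SD_3. Of these 24, 12 (50%) had an island in more CR than SD libraries and 1 in more SD libraries, where 29.3% and 13.5% of all marked genes did. The 12 genes included Clock, Arntl, Per1, Per2, Per3, Dbp, Hlf, Bhlhe41, Ciart, Wee1 and Noct, and SD_3 lacked an island at each of the 12. Without SD_3 the count was 6 of 24 (25%) with more CR and 4 with more SD, beside 21.8% and 21.7% of all marked genes. SD_3 also had the shortest list. Over the omission of each library in turn, the share of all marked genes with more CR ran from 21.8% to 38.4%, and the share with more SD from 7.7% to 23.2%.

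Score percentiles of single clock genes come from lists of differing length, so they are not level between libraries. The genes marked in all 6 libraries had median percentiles of 86.8, 80.0 and 71.3 in SD_1, SD_2 and SD_3. Their medians were 76.2, 81.1 and 91.4 in CR_1, CR_2 and CR_3. Per1, a negative arm component of the loop, was marked in the 3 CR mice at percentiles of 91.1, 96.6 and 97.7 and in SD_1 alone of the SD mice, at 80.7. Noct, a clock-controlled phosphatase, stood at 87.6, 96.3 and 96.6 in the CR mice and at 84.2 in SD_1 alone. Dbp, a clock output factor, stood at 98.5, 97.2 and 97.3 in CR and at 93.3 and 70.0 in SD_1 and SD_2. Arntl (BMAL1), the activator of the loop, had an island in more CR libraries but lower scores there, 37.6, 21.97 and 68.4 against 76.9 and 82.9 in SD_1 and SD_2. Other core genes did not separate the diets. Nr1d1, Bhlhe40, Cry1, Cry2 and Rora were marked in all 6 libraries, with Nr1d1 at 96.9, 86.1 and 98.02 in CR and at 98.3, 96.0 and 93.4 in SD.

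Cytochrome P450 genes, which oxidise drugs, steroids and fatty acids, were the other list with many islands on the CR side. Of 48 marked genes 21 (43.8%) had an island in more CR libraries and 6 (12.5%) in more SD libraries, beside 29.3% and 13.5% of all marked genes. The count of marked P450 genes was 22, 37 and 45 in CR_1, CR_2 and CR_3 and 29, 25 and 26 in the SD mice, so the groups overlapped and CR_1 was the lowest of the 6. When at least 2 mice of a diet were required and the opposite diet had none, 6 of the 48 (12.5%) were on the CR side and none on the SD side, beside 3.33% and 0.625% of all marked genes. They were Cyp2a5, Cyp2c54, Cyp2f2, Cyp2u1, Cyp4b1 and Cyp26a1, named after their values were seen. Cyp26a1, which degrades retinoic acid, had percentiles of 59.6 in CR_2 and 89.0 in CR_3, and Cyp2c54 had 44.0 and 79.8. In the same libraries Cyp2a5 had 42.8 and 51.8, Cyp2u1 32.6 and 80.9 and Cyp2f2 6.2 and 69.4. Cyp4b1 had 69.5 in CR_1 and 59.1 in CR_3, and 1 SD library held an island within 3 kb of it. In 5 of the 6, CR_2 and CR_3 held the islands, and Cyp4b1 was marked in CR_1 and CR_3. Without CR_3, 19 of 45 marked P450 genes (42.2%) leaned to CR and 14 (31.1%) to SD, beside 28.9% and 23.2% of all marked genes. Without CR_1 the counts were 30 (62.5%) and 3 (6.25%) of 48, beside 38.4% and 7.7%. Many of these genes have close paralogs, at which 50-base reads can be misplaced.

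Lipid synthesis genes were mixed. Of 27 marked genes of fatty acid and triglyceride synthesis, 8 (29.6%) leaned to CR and 5 (18.5%) to SD, beside 29.3% and 13.5% of all marked genes. The counts were 5 (18.5%) and 7 (25.9%) without SD_3, beside 21.8% and 21.7% of all marked genes. They were 10 (37.0%) and 0 without CR_1, beside 38.4% and 7.7%. Acacb, Plin5 and Cd36, again named after their values were seen, had islands in CR_2 and CR_3 and in no SD mouse. Acacb, which makes the malonyl-CoA that restrains fatty acid entry into mitochondria, had percentiles of 44.4 and 80.9. Plin5, a lipid droplet coat protein, had 55.8 and 70.7, and 2 SD libraries held an island within 3 kb of it. Cd36, a fatty acid transporter, had 28.8 and 72.9.

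Of 29 marked genes of cholesterol synthesis and uptake, 19 had islands in as many CR as SD libraries, and most of the others leaned to SD. The 3 SD mice marked 28, 29 and 27 of 29, and the CR mice 21, 25 and 29, so CR_1 and CR_2 were below every SD mouse and CR_3 matched the highest. Summed island width did not follow the counts. It was 74, 65.4 and 65.8 kb in SD_1, SD_2 and SD_3 and 41.6, 75.6 and 92.4 kb in CR_1, CR_2 and CR_3. Of the 29, 9 (31.0%) had an island in more SD than CR libraries and 1 (3.45%) in more CR libraries, where 13.5% and 29.3% of all marked genes did. The 9 included the enzymes Mvk, Idi1, Fdps, Tm7sf2, Hsd17b7 and Dhcr7 and the sterol transporters Abcg5 and Abcg8, which share a promoter. CR_1, the shallowest library, lacked an island at 7 of these 9, and without it 4 genes (13.8%) leaned to SD and 2 (6.9%) to CR, beside 7.7% and 38.4% of all marked genes.

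In the insulin and growth hormone axis, 1 gene was ahead by 2 libraries in CR and 1 in SD, the latter being Igfbp1. Igfbp1, a liver-secreted binding protein of insulin-like growth factors, was marked at 90.5, 87.7 and 75.04 in the 3 SD mice and only in CR_3 of the CR mice, at 76.7. Of the 34 marked genes of this axis 7 (20.6%) leaned to CR and 4 (11.8%) to SD, beside 29.3% and 13.5% of all marked genes. The counts were 5 and 6 without SD_3, 6 and 7 without CR_2, 7 and 7 without CR_3 and 10 and 2 without CR_1. In the same order, all marked genes gave 21.8% and 21.7%, 31.0% and 21.7%, 28.9% and 23.2%, and 38.4% and 7.7%. In glucose metabolism 15 of 40 (37.5%) leaned to CR and 8 (20%) to SD, beside 29.3% and 13.5% of all marked genes, with the phosphoglucomutase gene Pgm1 marked in all 3 CR mice, at 70.2, 78.04 and 87.7, and in SD_3 alone of the SD mice. Without CR_1 the glucose counts were 15 (38.5%) and 2 (5.13%) of 39, beside 38.4% and 7.7% of all marked genes. Igfbp1, Pgm1 and the genes of cholesterol synthesis were chosen after their values were seen. In mTOR and autophagy 10 of 39 (25.6%) leaned to CR and 1 (2.56%) to SD, and 5 (12.8%) and 1 did without SD_3, beside 21.8% and 21.7% of all marked genes.

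The remaining lists are to be read against the shares over all marked genes, 29.3% with more CR and 13.5% with more SD. Of 25 marked antioxidant genes 5 leaned to CR and 2 to SD, of 27 sirtuin and AMPK genes 9 and 2 (6 and 6 without SD_3), and of 33 interferon and inflammation genes 9 and 5. Fatty acid oxidation gave 4 and 6 of 34, hepatocyte function 5 and 6 of 47, cell cycle and p53 genes 5 and 7 of 32, sex-biased liver genes 7 and 6 of 20, and collagens and matrix 4 and 2 of 11. Developmental transcription factors gave 2 and 6 of 13, Hox genes 3 and 3 of 6, and the enzymes that write and erase the mark itself 4 and 0 of 22, of which 17 were marked in all 6 libraries. Leaving out 1 library changed several of these counts, and with them the shares over all marked genes. Without SD_3 they were 4 and 4 for antioxidant genes, 8 and 9 for interferon and inflammation and 1 and 1 for the enzymes of the mark. All marked genes then gave 21.8% and 21.7%. Without CR_1 they were 8 and 0 of 34 (23.5% and 0%) for fatty acid oxidation and 8 and 1 of 47 (17.0% and 2.13%) for hepatocyte function. Cell cycle and p53 then gave 9 and 5 of 32 (28.1% and 15.6%) and sex-biased genes 11 and 2 of 20 (55% and 10%). All marked genes gave 38.4% and 7.7%. Without CR_3 sex-biased genes gave 5 and 10 of 18, beside 28.9% and 23.2% of all marked genes. Without SD_2 developmental factors gave 4 and 1 of 8, beside 36.4% and 15.5%. Among cell type markers, sinusoidal endothelial genes gave 5 and 6 of 16, stellate cell genes 1 and 4 of 6, cholangiocyte genes 4 and 1 of 7, lymphocyte and neutrophil genes 0 and 1 of 1, and both marked Kupffer cell genes were even.

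**Figure D4:**
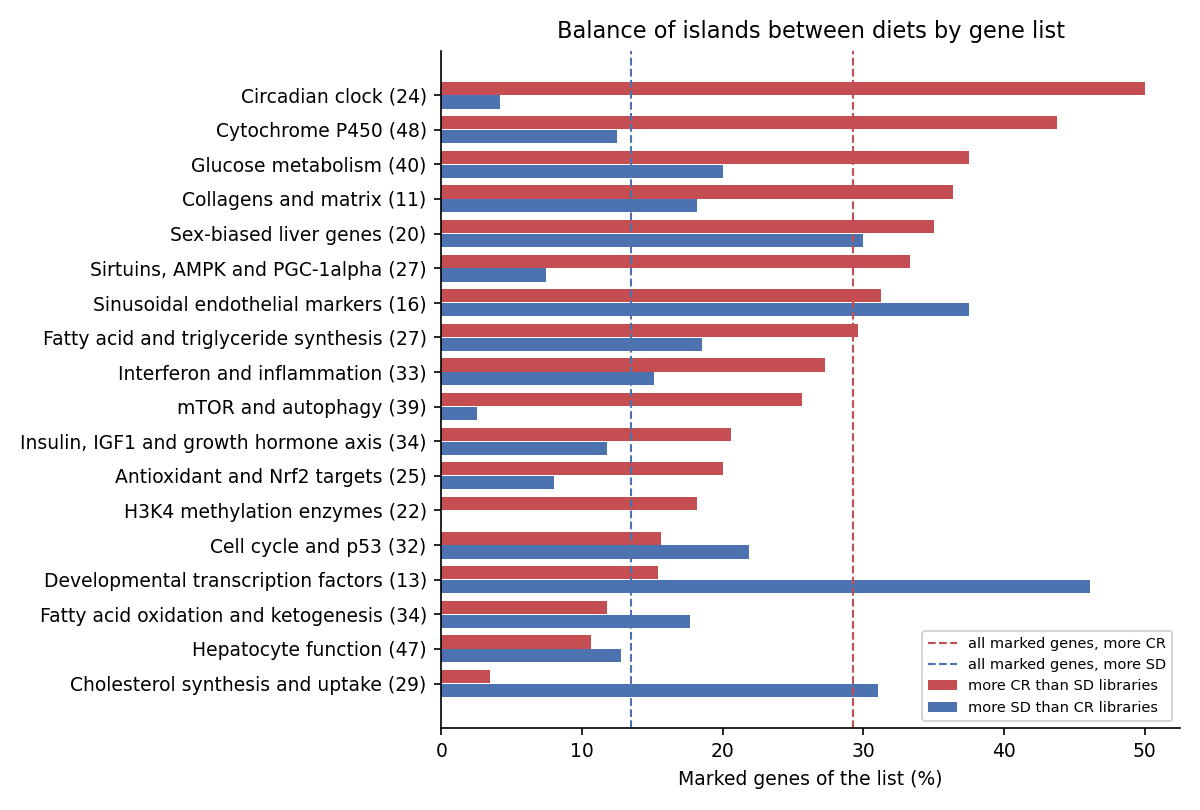
Share of the marked genes of each list (number in parentheses, lists of at least 10) with an island in more CR than SD libraries (red) or in more SD than CR libraries (blue), with the shares over all 11686 marked genes as dashed lines. The clock (50% with more CR) and P450 (43.8%) lists extend furthest on the CR side, and cholesterol synthesis has 31.0% with more SD and 3.45% with more CR.

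At promoters marked in every mouse, no difference in width or rank passed the test. The 5389 genes with an island in all 6 libraries form 4545 promoters, since genes with the same islands were counted once. For log2 island width, limma called 0 of 4545 promoters (0%) at a Benjamini-Hochberg adjusted p of 0.05, with a smallest adjusted p of 0.694. An unadjusted limma p under 0.05 was found at 206 (4.53%), below the 5% that the threshold itself allows without any difference. For the rank of the score among these promoters, limma called 0 of 4545 (0%), with 185 (4.07%) at an unadjusted p under 0.05 and a smallest adjusted p of 0.950. Both counts stayed at 0 under every alternative run. At the unadjusted threshold 162 promoters were wider in CR and 44 wider in SD, beside a median log2 difference over all promoters of 0.14. After each library was centred on its own median, which by construction brings the median difference near 0, it was -0.03 and the split was 81 and 118. For rank, 83 promoters were higher and 102 lower in CR at the unadjusted threshold, and 64 and 12 when the percentile was taken over the whole list, where the median difference moved from -0.33 to 3.32 points.

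Promoters whose 3 CR mice all lay on one side of the 3 SD mice were about as many in either direction by rank. All CR ranks were above all SD ranks at 211 promoters (4.64%) and below at 221 (4.86%). By width, the 3 CR islands were all wider at 274 promoters (6.03%) and all narrower at 73 (1.61%).

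The promoter with the smallest p for width was that of Zbtb7b, which encodes a zinc finger transcription factor. Its island was 6600, 6200 and 6800 bp wide in SD_1, SD_2 and SD_3 and 2000, 2400 and 2800 bp in CR_1, CR_2 and CR_3, without overlap. The log2 difference CR minus SD was -1.46 (SE 0.25, limma adjusted p = 0.694), and its rank was 96.4, 99.0 and 99.0 in SD against 70.4, 77.4 and 79.4 in CR. Coq8a, needed for coenzyme Q synthesis, had islands of 5400, 4200 and 6000 bp in SD and 1200, 3000 and 1600 bp in CR, a log2 difference of -1.52 (SE 0.36, limma adjusted p = 0.959). Its rank was 95.6, 94.9 and 95.2 in SD and 2.1, 22.5 and 33.9 in CR. Elovl2, an elongase of polyunsaturated fatty acids, had islands of 3200, 4000 and 2800 bp in SD and 1200, 1400 and 1200 bp in CR. Zfp710 (log2 difference -1.12) and Lig1, a DNA ligase whose promoter is shared with Zswim9 (-1.21), were the other promoters among the 5 with the smallest p for narrower islands in CR.

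In the other direction Ces1d came first for both measures. Ces1d encodes a liver carboxylesterase that hydrolyses triglyceride, and its island was 2000, 800 and 1600 bp wide in the SD mice and 4800, 4600 and 4800 bp in the CR mice. The log2 difference was 1.79 (SE 0.36, limma adjusted p = 0.959), and the rank was 23.6, 10.96 and 13.01 in SD against 77.6, 84.7 and 97.4 in CR. Neither group overlapped the other, and the gene sits in a cluster of related carboxylesterases. Rps6ka3, a ribosomal S6 kinase, had islands of 1200, 1200 and 1000 bp in SD and 2600, 3600 and 3000 bp in CR, but its ranks overlapped. Trp53i13 and its neighbour Abhd15 shared islands of 4600, 5200 and 4800 bp in CR, against 800, 1400 and 2600 bp at Trp53i13 in SD. Mettl23, a methyltransferase-like gene, had 2000, 2400 and 3200 bp in SD and 5000, 4600 and 6400 bp in CR.

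By rank, the promoters of Coq8a and Nr0b2 lay furthest below their SD level in CR. Nr0b2 (SHP), the repressor of bile acid synthesis, ranked at 84.9, 81.2 and 94.9 in SD and at 15.7, 1.0 and 27.9 in CR, a difference of -72.2 percentile points (SE 17.1, limma adjusted p = 0.950). Bmp2, an endothelial signal for hepcidin, ranked at 73.8, 35.2 and 67.8 in SD and at 9.99, 3.20 and 0.62 in CR, a difference of -54.4 (SE 14.0, limma adjusted p = 0.950). Pkd1, the polycystin gene, ranked at 74.6, 55.7 and 30.2 against 3.1, 7.9 and 1.0. Arhgef26, Urah and Csk, a guanine exchange factor, an enzyme of uric acid breakdown and a kinase that restrains Src, ranked higher in CR by 49.3, 47.2 and 41.5 points. Each of these 6 promoters had its 3 CR ranks on one side of its 3 SD ranks, and none passed the adjusted threshold.

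**Figure D5:**
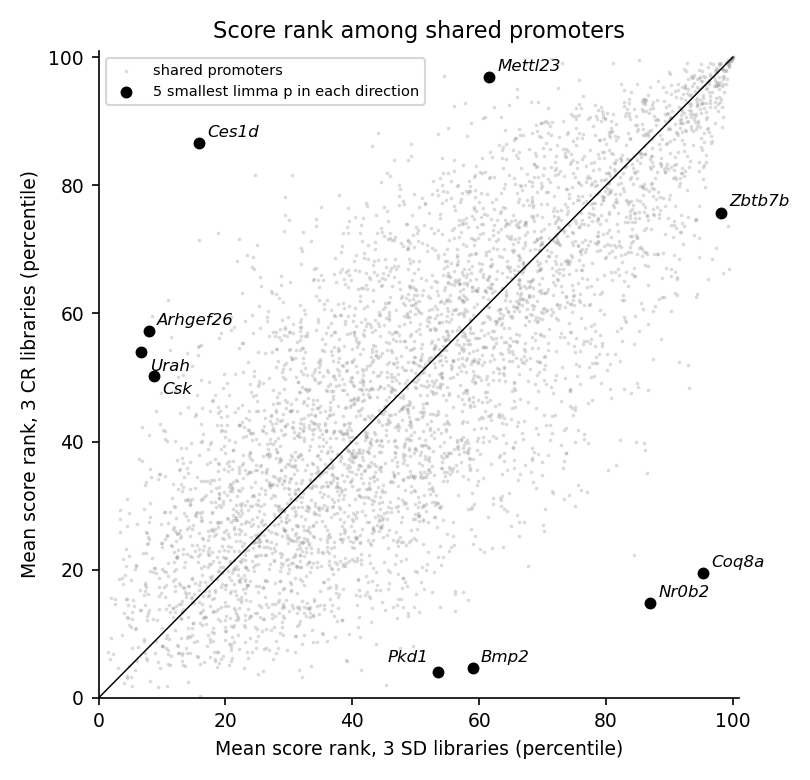
Mean score rank among the 4545 shared promoters, as a percentile, in the 3 SD libraries (x axis) and the 3 CR libraries (y axis), with the line of equality. Black points are the 5 promoters with the smallest limma p in each direction; Ces1d lies far above the line, and Coq8a and Nr0b2 far below it, and none of the 4545 passed an adjusted p of 0.05.

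The gene lists shifted in rank at shared promoters in both directions, some of them little. The clock list had a median difference CR minus SD of -1.66 points over 8 promoters, 4 higher and 4 lower in CR. Cholesterol synthesis and uptake had -1.69 over 17, 8 higher and 9 lower. The median difference CR minus SD was 10.2 points over 15 promoters of glucose metabolism, 8.74 over 11 of sirtuins and AMPK, -6.75 over 16 of the cell cycle and p53, -6.02 over 27 of mTOR and autophagy, -5.56 over 12 of P450 genes and -1.33 over 33 of hepatocyte function, beside -0.33 over all 4545. The largest medians came from lists with few shared promoters, -24.5 over 3 of sinusoidal endothelium, with Gata4 and Bmp2 lower in every CR mouse than in any SD mouse, -31.8 for the 1 stellate promoter and -15.7 over 3 of collagens and matrix. In glucose metabolism, the glucose 6-phosphate transporter gene Slc37a4 ranked at 78.7, 25.3 and 69.5 in SD and 86.7, 94.2 and 97.5 in CR. Gpi1, glucose 6-phosphate isomerase, ranked at 6.0, 18.3 and 1.0 in SD and 30.5, 69.9 and 78.5 in CR (difference 51.2, SE 15.6, limma adjusted p = 0.950). Ppp1r3b, which targets a phosphatase to glycogen, lay the other way, at 80.7, 92.5 and 89.9 in SD and 51.7, 56.1 and 75.9 in CR. Ghr, the growth hormone receptor, ranked at 54.9, 22.5 and 69.1 in SD and 71.3, 89.5 and 91.0 in CR. Sod1, cytosolic superoxide dismutase, ranked at 86.6, 65.6 and 77.1 in SD and 96.9, 92.0 and 92.7 in CR. Irf1, an interferon regulatory factor, ranked at 75.7, 75.4 and 80.4 in SD and 56.6, 37.5 and 25.2 in CR. These list genes without overlap between the diets were named after their values were seen, and each had a limma adjusted p of 0.950. In glucose metabolism 2 promoters had all CR ranks above the SD ranks and 1 had all below. The counts were 1 and 1 in the insulin axis, 1 and 1 in antioxidant and 1 and 0 in sex-biased genes. They were 0 and 2 each in cholesterol synthesis, cell cycle and sinusoidal endothelium. In fatty acid oxidation, fatty acid synthesis, mTOR, P450, interferon and matrix lists they were 0 and 1 each. Over all shared promoters the shares were 4.64% and 4.86%.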

How the data were processed

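H3K4me3 PAT-ChIP-seq libraries of 6 mouse livers, 3 CR and 3 SD, were analysed, with 1 library per mouse. Per the study's methods, the authors aligned single reads of 50 bases to mm10 with BWA, kept with SAMtools the mapped, non-duplicate reads of MAPQ 1 or more on chromosomes 1 to 19 and X, and called islands in each library with SICER2 (fragment 200 bp, window 200 bp, gap 400 bp, FDR under 0.05). Tool versions are not given in the sources used here. The deposited score adds up, over the enriched windows of an island, the negative natural log of each window's Poisson probability, and it is not scaled between libraries. Replicates were not pooled. Library totals were recovered from score steps with an effective genome fraction of 0.74.

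A gene was marked when an island lay within 1 kb of one of its GENCODE M21 TSSs, and its highest-scoring island was used. Diets were taken from the labels. Presence was counted without a test, library values were compared by two-sided exact permutation, and log2 width and score rank at shared promoters were fitted with limma 3.58.1 in R 4.3.3 (lmFit, eBayes with trend, Benjamini-Hochberg over 4545 promoters), after tests on simulated data. Other steps used Python 3.11.15 with scipy 1.17.1, pandas 2.3.3, numpy 2.4.6 and matplotlib 3.10.9. Named genes were the 12 CR-only and up to 12 SD-only genes with the highest mean percentile, list genes in one diet only, and the 5 promoters with the smallest limma p per direction and measure; others are said to have been named after their values were seen. The members, the 23 gene lists and the tests were chosen with earlier results of these data known. Alternatives were the same number of islands per list, islands of at least 600 bp, other TSS distances (inside, 3 kb), all annotated genes, TSS clusters, other scalings, a replicate block, libraries with the ChIP form of name and omission of each library. Read counts, input and expression were not analysed here. Some list members are counted but not reported by name here.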

Additional observations from a re-analysis of the deposited data

How the results depend on the processing

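The differences in marked genes and in median island width per library kept their direction, and limma calls stayed at 0, in every alternative run. The median log2 width difference over shared promoters was 0.14 and turned to -0.03 after centring, by construction. The smallest limma adjusted p for width was 0.108 after centring and 0.0944 without SD_2, and for rank 0.350 with normal scores. CR-only genes numbered 85 to 328 with each library left out, and 743 against 43 SD-only genes when CR_1 and CR_2 were left out for their PATChIP names, which leaves 1 CR mouse without a replicate. The 4 SD-only genes became 14 with the same number of islands per list, 19 with a TSS inside the island, 2 within 3 kb, 9 over all annotated genes, 7 over TSS clusters (98 CR-only clusters, an alternative added after seeing the data) and 10 to 40 with each library left out. Under the rule of 2 mice, CR counts ran from 94 to 823 with each library left out, and SD counts from 16 to 206, with 114 for the same number of islands, 131 for a TSS inside and 120 for all annotated genes. The cause of these shifts was not tested. Leaving out a mouse loosens the rule of all 3 mice by construction. For the rule of 2 mice, leaving out a mouse of the opposite diet loosens the rule. Leaving out a mouse of the marked diet tightens it, since both remaining mice must then be marked. A pairing of the mice by replicate number was not assumed in the main fits. Deviations of same-numbered libraries correlated at 0.0065, 0.094 and 0.095 for width and at 0.027, 0.13 and 0.23 for rank. Those of differently numbered libraries ran from -0.121 to 0.029 for width and from -0.229 to 0.101 for rank. With the replicate block the difference in marked genes had p = 0.75 and that in width p = 0.5 (exact permutation over 8 arrangements, smallest possible 0.25). With that block limma again called 0 promoters, and 201 (4.42%, width) and 212 (4.66%, rank) had an unadjusted p under 0.05. Among named presence genes, 19 results were no longer in one diet only, 9 with a TSS inside the island, 6 with the same number of islands and 4 within 3 kb. Recovered depth ran from 5589269 to 10714462 reads, and its part in missing islands was not tested.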

Other observations

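Some genes marked in every mouse had a second TSS that lay within 1 kb of an island in one diet only. After TSSs of a gene within 1 kb of each other were joined, 48338 promoters were compared, of which 98 were CR-only and 7 SD-only. In 13 of the CR-only and 2 of the SD-only cases the gene had another promoter marked in all 6 libraries, and these genes were named after their values were seen. Ets2, a transcription factor of the ETS family, had an SD-only promoter at a TSS at position 95706339 of chromosome 16, with percentiles of 95.0, 90.5 and 88.0 in the 3 SD mice. Irf3, a factor of the innate interferon response, had a CR-only promoter on chromosome 7 with percentiles of 83.7, 91.0 and 97.6. The ribosomal protein gene Rpl3 had one at 74.8, 91.4 and 97.1 and the translation initiation factor gene Eif3d one at 64.5, 95.3 and 98.5. Adipor2, an adiponectin receptor, had one at 27.6, 71.3 and 61.6, and Pfkm, a phosphofructokinase, one at 53.2, 8.3 and 62.4. These are presence counts without a test. An island of another promoter of the gene also counts here when it reaches within 1 kb of the second TSS. At Hlf, outside the 13, the CR-only promoters carried 29.6, 94.9 and 98.7, the values of the gene's highest-scoring island in each CR mouse. Whether the named second promoters hold islands of their own was not tested.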
